A study of Mus musculus with 27 samples.

Results

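The genes described here are the 4 ligands and 2 receptors of the platelet-derived growth factor (PDGF) system, *Pdgfa*, *Pdgfb*, *Pdgfc*, *Pdgfd*, *Pdgfra* and *Pdgfrb*. They were chosen by name and matched by symbol to the Ensembl genes of the files, where all 6 were found among 48795 genes. All 6 passed the filter on low counts, which kept 20839 genes. RNA was sequenced from an XY mouse embryonic stem cell (ESC) line as it was differentiated toward gonadal cells, in 9 groups of 3 libraries. The line carries Tesco-CFP, a cyan fluorescent reporter driven by a Sertoli cell enhancer of *Sox9*, and R26-rtTA, which permits doxycycline-inducible expression. It is a single clone from a C57BL/6 x CBA F1 background, so all 27 libraries share its genotype.

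EpiSC libraries come from cells after 60 h with 20 ng/ml of Activin A, 12 ng/ml of bFGF (a fibroblast growth factor) and 1% KSR, a serum replacement. A further 36 h with LY294002 (10 µM), an inhibitor of phosphatidylinositol 3-kinase, 10 ng/ml of BMP4 (a bone morphogenetic protein) and 20 ng/ml of bFGF gave the M group. Cells of IM1 to IM5 followed M, and all their media held BMP4 at 20 ng/ml with bFGF at 5 ng/ml. IM1 had no further factor. IM3 also received retinoic acid (100 nM), IM4 retinoic acid and the GSK3 inhibitor CHIR99021 (0.3 µM), IM2 retinoic acid and Activin A (10 ng/ml), and IM5 all 3 of these. The iSLC group is IM3 cells that were infected with lentiviruses for inducible *Nr5a1* and *Dmrt1*, moved to a Sertoli medium with doxycycline and sorted for CFP. Virus, medium and sort cannot be told apart in that group. The study describes the 3 libraries of a group as biological replicates. The labels do not say whether they came from separate differentiations of the clone, and p-values measure the spread between these libraries.

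PDGF ligands are secreted as dimers that bring together 2 receptor tyrosine kinases of the same family as KIT and CSF1R. PDGF-A binds the alpha receptor and PDGF-B both receptors. PDGF-C and PDGF-D carry a CUB domain that must be cut off by proteases before they bind, PDGF-C to the alpha receptor and PDGF-D to the beta receptor. *Pdgfra* is a marker of early mesoderm and of mesenchyme, and in the developing testis its signals take part in cord formation and in the growth of fetal Leydig cells. *Pdgfrb* is a marker of pericytes, vascular smooth muscle and fibroblasts, and endothelial cells release PDGF-B to recruit them.

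The 250 bases before the RefSeq start sites (GRCm38.p6) of *Pdgfra* and *Pdgfc* are shown because these genes had the largest differences between the group means among the members whose start region could be shown. They run from 5′ to 3′ on the plus strand, at chr5:75152001-75152250 and chr3:81036166-81036415, and capitals mark a match to a motif.
Pdgfra: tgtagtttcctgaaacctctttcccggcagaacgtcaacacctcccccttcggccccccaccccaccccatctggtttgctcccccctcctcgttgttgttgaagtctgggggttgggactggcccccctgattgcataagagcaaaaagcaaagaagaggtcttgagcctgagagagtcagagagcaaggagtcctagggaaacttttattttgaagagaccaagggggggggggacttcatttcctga
Pdgfc: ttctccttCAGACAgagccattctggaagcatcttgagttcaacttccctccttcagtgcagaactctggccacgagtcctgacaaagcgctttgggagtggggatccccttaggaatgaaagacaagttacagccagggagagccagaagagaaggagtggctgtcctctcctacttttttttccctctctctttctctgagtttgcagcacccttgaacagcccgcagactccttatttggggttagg
The motifs searched, on both strands and without overlap in their letters, were AGGTCA (a half-site of retinoid receptors), CTTTGA (a core of TCF/LEF sites) and CAGACA (a SMAD box with a flanking base). Neither window held AGGTCA or CTTTGA, which 14.0% and 13.8% of 32817 start-site windows of this length held. CAGACA was found once, in *Pdgfc*, and in 17.1% of all windows. None of the 3 motifs was found in the windows of *Pdgfa* or *Pdgfd*. *Pdgfra* and *Pdgfc* had 4 and 3 CG pairs in 250 bases, below the median of 6 over all windows, and the 2 windows of *Pdgfa* had 19 and 28. A match or its absence in these letters is a description only.

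On GRCm38, *Pdgfra* (ENSMUSG00000029231) lies on chromosome 5 from 75152292 to 75198215 on the plus strand, and *Pdgfrb* (ENSMUSG00000024620) on chromosome 18 from 61045150 to 61085061 on the plus strand. *Pdgfa* (ENSMUSG00000025856) also lies on chromosome 5, from 138976014 to 138997370 on the minus strand. *Pdgfb* (ENSMUSG00000000489) is on chromosome 15 from 79995874 to 80014977 on the minus strand. *Pdgfc* (ENSMUSG00000028019) is on chromosome 3 from 81036416 to 81214040, and *Pdgfd* (ENSMUSG00000032006) on chromosome 9 from 6168584 to 6378850, both on the plus strand. Of the exonic bases of *Pdgfa*, 26.1% overlap exons of *6330403L08Rik* on the opposite strand. The sources used here do not state a strand setting for the counting, so its values are uncertain to that extent. The same share was 2.9% for *Pdgfc* (*Gm16000*, opposite strand), 6.5% for *Pdgfra* (*Mir7025*, *Gm42802* and *Gm42803*, all but *Mir7025* on the opposite strand) and 0 for the other members.

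Totals of expected counts lay between 35923040 and 84876603 per library. The sum of 6 red blood cell genes was 4.02 to 27.6 CPM (counts scaled to library size) in 12 libraries (IM3, IM4, M and ESC) and 0.375 to 1.38 in the other 15 (iSLC, EpiSC, IM1, IM2 and IM5). The trend of counts with GC content also differed between these libraries, at -0.377 to -0.0414 and -0.0961 to 0.382 (median log2 deviation of genes of high minus low GC content). Of the 10 comparisons, those of M to IM3, IM3 to IM4 and IM2 to IM5 stay inside one of these sets of libraries, and the other 7 cross them. Their part in the results below was not tested beyond the fit with an offset for GC content, which is given where it changes a call. Of the markers of the labelled stages, *Pou5f1* was at 1610 and 1670 TPM (a length-scaled level) on average in ESC and EpiSC, *T* at 502 in M, and *Gata4* and *Wt1* at 340 and 149 in IM3. In iSLC the Sertoli gene *Sox9* was at 24.8 TPM, below its means of 38.4 to 56.9 in IM1 to IM5. The other listed Sertoli genes were low in iSLC. *Amh* (0.56 against 0.44 TPM in IM3), *Sox8* (6.93 against 3.9), *Dhh* (1.86 against 0.7) and *Ptgds* (0.493 against 0.397) were above IM3, and *Cst9* (1.5 against 4.41) was below it. The genital ridge gene *Lhx9* was under 0.1 TPM in iSLC. In these bulk samples, fewer cells of a type and less RNA per cell cannot be told apart.

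Levels are given as TPM (transcripts scaled to gene length and to a fixed library total), which is corrected for length and can be set side by side between genes. *Pdgfra* was near absent before mesoderm and highest in the conditions with retinoic acid and no Activin A. Its levels were 1.61, 1.25 and 1.31 TPM in the 3 ESC libraries and 1.56, 1.80 and 1.99 in EpiSC. In M they were 30.1, 25.2 and 31.1 TPM, and in IM1 27.9, 23.2 and 21.3. IM3 had 103, 109 and 105 TPM and IM4 had 96.5, 96.3 and 104, above every library of the other IM media. IM2 lay at 58.3, 57.2 and 57.2 TPM and IM5 at 37.7, 49.6 and 45.8. In iSLC the levels were 87.5, 88.6 and 97.0 TPM. In the order of the means (IM3, IM4, iSLC, IM2, IM5, M, IM1, EpiSC, ESC), IM3 and IM4, IM4 and iSLC, M and IM1, and EpiSC and ESC were neighbours whose libraries overlapped in TPM. Between M and IM1 the test on normalized reads, given with that comparison, nevertheless had a small adjusted p. The highest mean was 75.9 times the lowest.

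*Pdgfrb* had a different order. ESC had 1.87, 1.7 and 1.5 TPM and EpiSC 1.53, 1.39 and 1.13. M libraries reached 22.1, 20.8 and 21.8 TPM. The highest levels were in IM2, with 119, 118 and 122 TPM, followed by IM1 with 107, 110 and 106.5 and IM5 with 99.0, 108 and 100.0. The iSLC libraries held 90.8, 91.6 and 94.5 TPM. IM3 had 58.0, 57.3 and 56.1 TPM and IM4 70.1, 55.9 and 59.8, so both retinoic acid media without Activin A lay below every library of IM1, IM2, IM5 and iSLC. Only IM1 and IM5, IM4 and IM3, and ESC and EpiSC overlapped among neighbours in this order. The highest mean was 88.6 times the lowest.

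**Figure D1:**
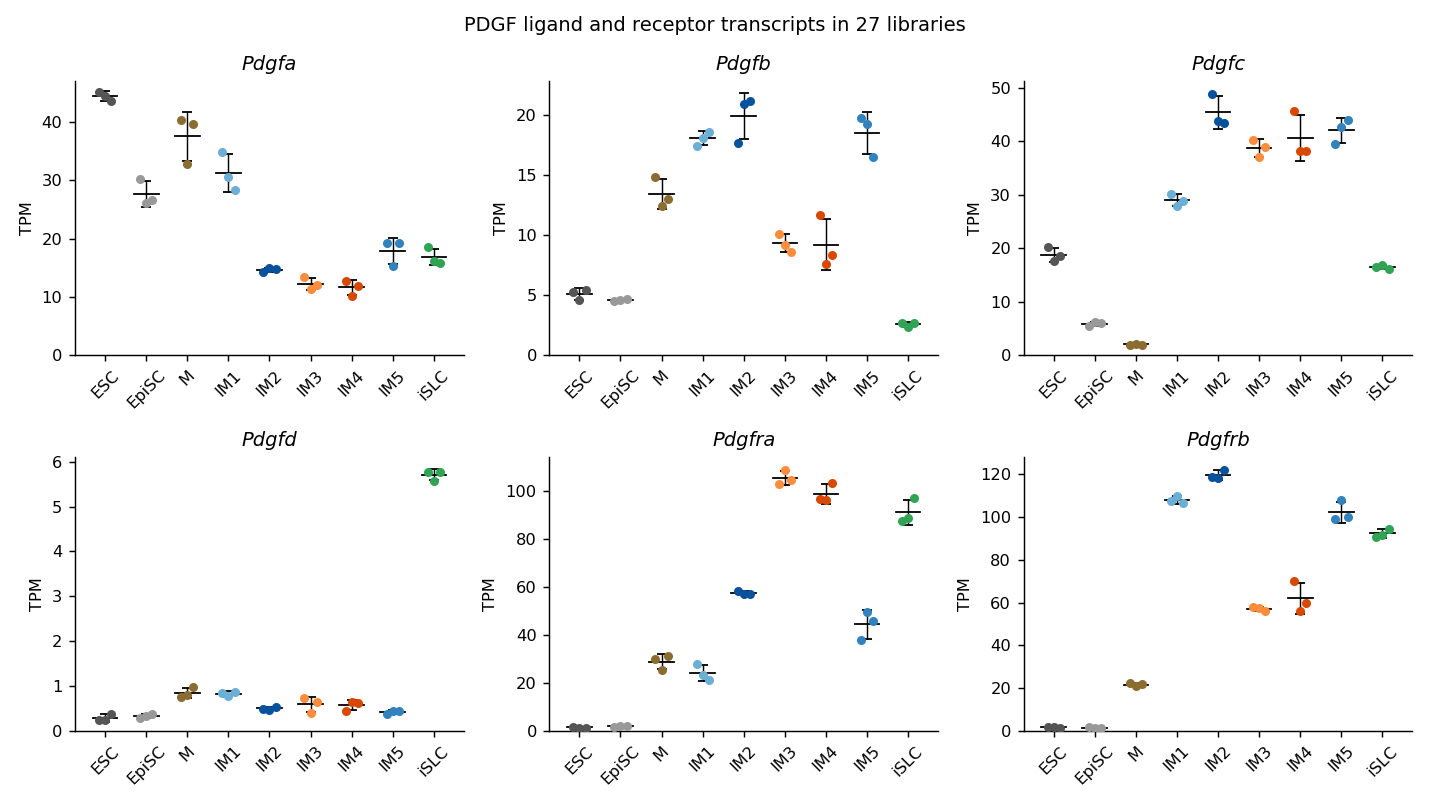
Levels of the 6 genes in TPM (vertical axes, linear, each with its own range) in the 9 groups; points are libraries, horizontal bars the mean and error bars the SD of 3 libraries. *Pdgfra* peaks in IM3 (mean 105.5 TPM) and *Pdgfrb* in IM2 (119.6 TPM), and *Pdgfd* exceeds 1 TPM in iSLC alone (5.71 TPM).

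Among the ligands, *Pdgfa* was the most abundant transcript in ESC, EpiSC and M. Its levels were 45.3, 44.6 and 43.6 TPM in ESC, 30.2, 26.2 and 26.7 in EpiSC and 40.4, 32.8 and 39.6 in M. IM1 held 34.9, 30.6 and 28.4 TPM. Every library with retinoic acid was lower, at 14.2, 14.9 and 14.7 in IM2, 13.4, 11.3 and 12.0 in IM3, 12.8, 10.2 and 11.8 in IM4 and 19.2, 15.3 and 19.2 in IM5. The iSLC libraries had 18.5, 16.2 and 15.8 TPM. M and IM1, IM1 and EpiSC, IM5 and iSLC, and IM3 and IM4 overlapped as neighbours in the order of the means.

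*Pdgfc* fell to its lowest level in M and was the most abundant ligand transcript in IM2 to IM5. It stood at 20.2, 17.6 and 18.5 TPM in ESC, 5.45, 6.2 and 6.02 in EpiSC and 1.94, 2.06 and 1.95 in M. IM1 libraries had 30.1, 27.9 and 28.8 TPM. The 4 media with retinoic acid overlapped with each other as neighbours, from IM2 (49.0, 43.9 and 43.5 TPM) through IM5 (39.5, 42.6 and 44.1) and IM4 (45.7, 38.3 and 38.2) to IM3 (40.3, 37.0 and 39.0), and all lay above IM1. In iSLC the levels were 16.6, 16.9 and 16.2 TPM.

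*Pdgfb* was highest in IM2 (17.6, 20.9 and 21.1 TPM), IM5 (19.8, 19.2 and 16.5) and IM1 (17.4, 18.1 and 18.6), which overlapped. M libraries had 14.8, 12.4 and 13.0 TPM, IM3 10.1, 9.14 and 8.61 and IM4 11.6, 7.60 and 8.31. ESC held 5.22, 4.54 and 5.45 TPM and EpiSC 4.48, 4.61 and 4.67. The lowest group was iSLC, at 2.68, 2.34 and 2.69 TPM. *Pdgfd* was at 0.24 to 0.98 TPM in the 24 libraries from ESC to IM5, with group means of 28.04 to 80.19 normalized read counts. In iSLC it was at 5.78, 5.57 and 5.78 TPM, apart from every other library.

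The 4 ligands together came to 38.5 ± 1.68 TPM in EpiSC and 41.7 ± 1.63 in iSLC, groups that met at 40.4 TPM and lay below the others, and to 80.4 ± 0.758 in IM2 (SD, n = 3), which overlapped IM1 (76.7 to 83.3) and IM5 (77.5 to 80.2). *Pdgfa* made up 64.9% ± 1.49 of this sum in ESC and 20.1% ± 0.632 in IM3, and *Pdgfc* 27.3% ± 1.1 and 63.7% ± 1.19 (SD, n = 3). In M the share of *Pdgfc* was 3.72% ± 0.504 and that of *Pdgfb* 24.9% ± 1.34 (SD, n = 3). *Pdgfd* made up 13.7% ± 0.523 in iSLC and at most 1.76% in any library of the other groups. The 2 receptors together were at 3.08 ± 0.353 TPM in ESC and 183 ± 7.12 in iSLC (SD, n = 3). The ligand sum exceeded the receptor sum in ESC and EpiSC and lay below it in all IM media and iSLC. In M the ligand sum, 53.8 ± 5.17 TPM, was close to the receptor sum, 50.4 ± 3.83 (SD, n = 3), and above it in each library.

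**Figure D2:**
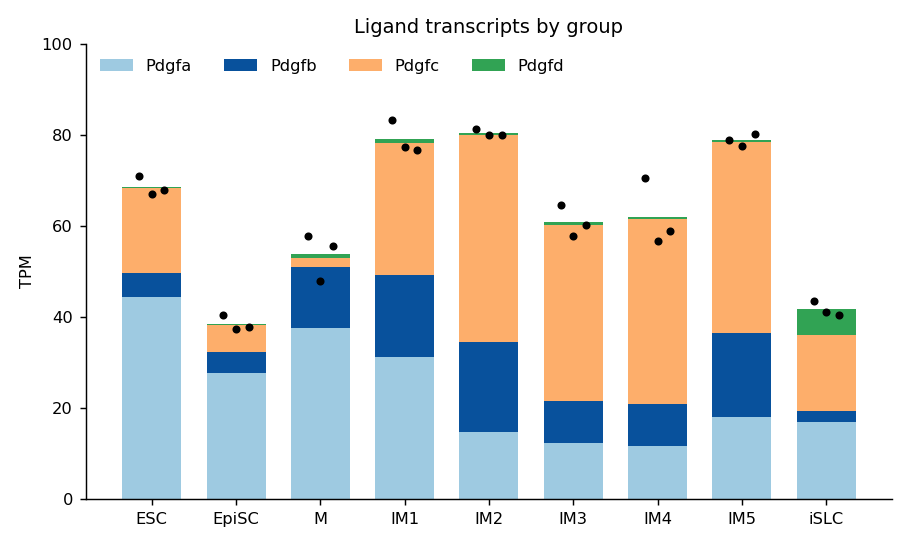
Mean TPM of the 4 ligands stacked by group (vertical axis from 0), with points for the ligand sum of each of the 3 libraries. *Pdgfa* is the larger part in ESC (64.9%) and *Pdgfc* in IM3 (63.7%), and the sum is lowest in EpiSC (38.5 TPM) and iSLC (41.7 TPM).

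A gene was called changed between groups at an adjusted p no higher than 0.01 (edgeR quasi-likelihood test, Benjamini-Hochberg over all 20839 genes) and a fold no lower than 2, provided that its normalized reads averaged 100 or more both across the 27 libraries and within one of the groups compared. Fold changes are on the log2 scale of normalized read counts, with the standard error (SE), and are not corrected for gene length. Several comparisons share a group, so their values for the members are not independent of each other. From ESC to EpiSC, 1 member was called, where 8.07% of all genes were (3.75% higher and 4.32% lower). *Pdgfc* fell by 1.57 on the log2 scale (SE 0.0648, adjusted p = 5.62e-17). The other members had log2 fold changes between -0.28 and 0.27 with adjusted p of 0.0107 to 0.484.

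From EpiSC to M, the step of mesoderm induction, 4 members were called against 14.5% of all genes (6.79% higher and 7.72% lower). *Pdgfra* rose by 3.97 (SE 0.0974, adjusted p = 3.70e-22) and *Pdgfrb* by 3.93 (SE 0.0804, adjusted p = 8.16e-24), with no overlap between the libraries of either. *Pdgfb* rose by 1.47 (SE 0.112, adjusted p = 6.41e-12). *Pdgfc* fell by 1.66 (SE 0.078, adjusted p = 2.90e-16). *Pdgfd* had a log2 fold change of 1.24 (adjusted p = 5.22e-07), but its mean of 94.5 normalized reads over all libraries is under the minimum. *Pdgfa* had -0.08 (adjusted p = 0.371). In M, *Pdgfra* was at 28.8 ± 3.19 TPM and *Pdgfrb* at 21.6 ± 0.696 (SD, n = 3), with every library of *Pdgfra* above every library of *Pdgfrb*.

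From M to IM1, with bFGF and BMP4 and no retinoic acid, 2 members were called against 15.7% of all genes (9.72% higher and 5.94% lower). *Pdgfc* rose by 3.81 (SE 0.0746, adjusted p = 3.67e-24) and *Pdgfrb* by 2.22 (SE 0.0673, adjusted p = 2.27e-20). *Pdgfra* had a log2 fold change of -0.38 (adjusted p = 0.000163), short of the fold minimum. From M to IM3, where retinoic acid was present, 4 members were called against 14.9% of all genes (9.26% higher and 5.66% lower). *Pdgfc* rose by 4.09 (SE 0.0751, adjusted p = 6.94e-25), *Pdgfra* by 1.72 (SE 0.0824, adjusted p = 3.70e-16) and *Pdgfrb* by 1.22 (SE 0.066, adjusted p = 5.21e-15). *Pdgfa* fell by 1.80 (SE 0.0902, adjusted p = 9.56e-16). *Pdgfb* and *Pdgfd* had -0.71 and -0.80.

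**Figure D3:**
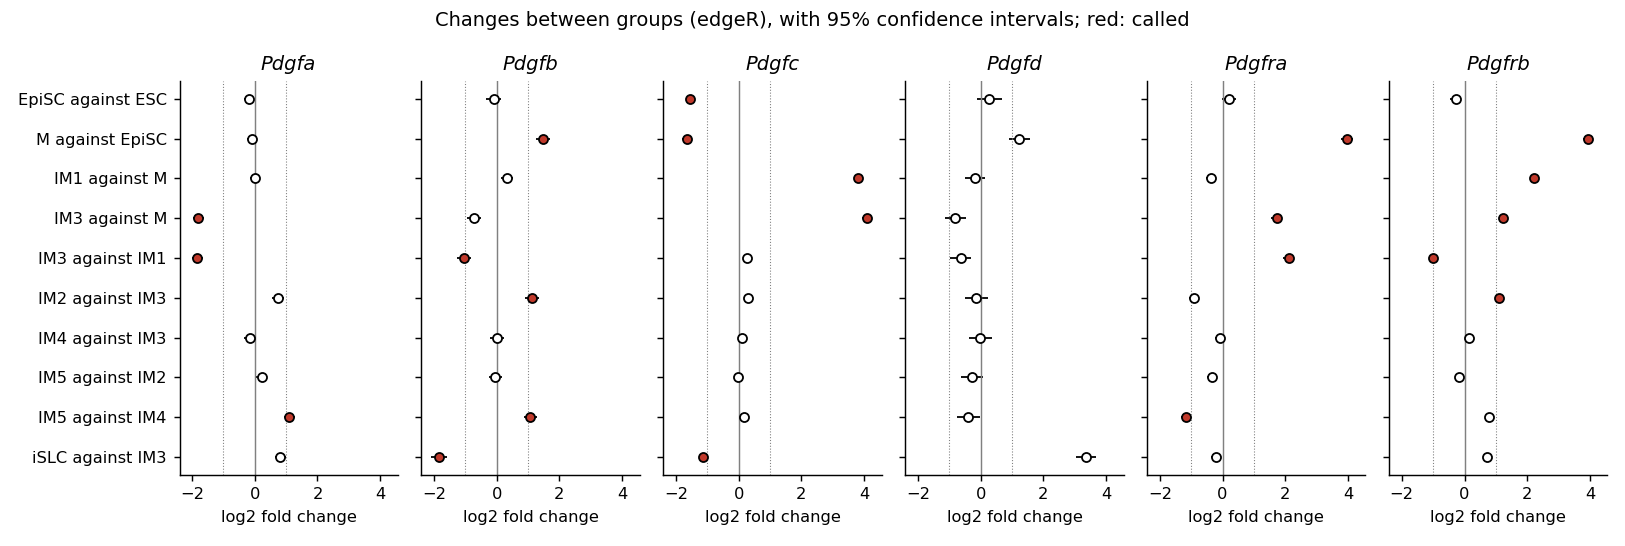
Log2 fold change (horizontal axes) of each member in 10 comparisons (rows), from edgeR on normalized read counts with 95% confidence intervals by a normal approximation. Red points were called, and dotted lines mark a fold of 2. *Pdgfra* and *Pdgfrb* move together from EpiSC to M (3.97 and 3.93) and in opposite directions from IM1 to IM3 (2.10 and -1.003).

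In its medium, IM3 differs from IM1 by retinoic acid alone. IM1 and IM3 also lie on opposite sides of the split by red blood cell genes, and retinoic acid and that split cannot be told apart. Here 4 of the 6 members were called, where 6.34% of all genes were (2.62% higher and 3.72% lower). *Pdgfra* rose by 2.10 (SE 0.0833, adjusted p = 4.57e-17), from 24.1 ± 3.42 to 105.5 ± 3.05 TPM (SD, n = 3). *Pdgfa* fell by 1.82 (SE 0.0896, adjusted p = 3.33e-15), *Pdgfb* by 1.04 (SE 0.109, adjusted p = 8.37e-09) and *Pdgfrb* by 1.003 (SE 0.0647, adjusted p = 8.44e-13). *Pdgfrb* is at the edge of the fold minimum, with a fold of 2.004. Its call was lost without IM1 replicate 2 (-0.99) and without IM3 replicate 1 (-0.999) or 3 (-0.9991), with adjusted p from edgeR of at most 4.68e-11. With an offset for GC content the log2 fold changes were -0.88 for *Pdgfrb* and -0.73 for *Pdgfb*, both short of the fold minimum, and those of *Pdgfra* and *Pdgfa* were still called. *Pdgfc* (0.28) and *Pdgfd* (-0.63) were not called. With retinoic acid present, transcripts of the alpha receptor and of its ligand PDGF-A thus differed in opposite directions. Among its other ligands, the log2 fold change was below 0 for *Pdgfb* and above 0 for *Pdgfc*.

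Activin A was added to retinoic acid in IM2. Against IM3, 2 members were called where 3.8% of all genes were (2.46% higher and 1.34% lower). *Pdgfb* rose by 1.12 (SE 0.109, adjusted p = 4.71e-09) and *Pdgfrb* by 1.09 (SE 0.0648, adjusted p = 5.46e-13). *Pdgfra* had -0.92 (adjusted p = 6.80e-10), short of the fold minimum, with no overlap between the libraries. With an offset for GC content, *Pdgfb* was at 0.84 and *Pdgfrb* at 0.98, so that 0 members were called. Activin A was also the difference between IM5 and IM4, in the presence of CHIR99021. There 3 members were called against 4.09% of all genes (2.63% higher and 1.46% lower). *Pdgfra* fell by 1.17 (SE 0.0809, adjusted p = 7.73e-12). *Pdgfa* rose by 1.11 (SE 0.0902, adjusted p = 1.77e-10) and *Pdgfb* by 1.07 (SE 0.108, adjusted p = 7.74e-09). *Pdgfrb* had 0.77 (adjusted p = 2.70e-10). The call of *Pdgfb* was lost without IM4 replicate 2 (0.96), without IM5 replicate 1 (0.98) and with an offset for GC content (0.70), and that of *Pdgfa* with an offset for effective length (0.69). The latter also took *Pdgfa* from 0.74 to 0.29 in IM2 against IM3. In both pairs of media the log2 fold change with Activin A was below 0 for *Pdgfra* and above 0 for *Pdgfb*, *Pdgfrb* and *Pdgfa*. *Pdgfc* was also above 0 (0.30 in IM2 against IM3 and 0.16 in IM5 against IM4) and *Pdgfd* below it (-0.13 and -0.39), and neither was called. Both pairs cross the split by red blood cell genes, so Activin A and that split cannot be told apart.

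CHIR99021 went with no called member. Between IM4 and IM3, 0 of 6 were called by edgeR and 0 by DESeq2, and 1 (*Pdgfrb*) had an unadjusted p under 0.05. Of all genes 0.101% were called, 0% higher and 0.101% lower. The 95% intervals of the log2 fold changes lay within -0.335 and 0.277 for the 5 members other than *Pdgfd*, whose interval was -0.3765 to 0.3524. These intervals use a normal approximation and are somewhat narrower than the quasi-likelihood test implies. Between IM5 and IM2, 0 members were called by both tools where 0.235% of all genes were (0.0432% higher and 0.192% lower), and 3 (*Pdgfa*, *Pdgfra* and *Pdgfrb*) had an unadjusted p under 0.05. The largest was *Pdgfra*, with a log2 fold change of -0.33 (adjusted p = 0.0097). The test of the difference between these 2 effects of CHIR99021, an interaction term, called 0 members by edgeR and by DESeq2 against 0.0336% of all genes. Adjusted p ran from 0.131 (*Pdgfrb*, -0.32) to 0.948 (*Pdgfb*, -0.05), and 3 members had an unadjusted p under 0.05.

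The 2 receptors were set against each other as the log2 ratio of *Pdgfra* to *Pdgfrb* in each library, with 0.1 TPM added to both. This ratio was 0.884 ± 0.0503 in IM3 and 0.679 ± 0.189 in IM4, against -1.05 ± 0.0358 in IM2 and -1.21 ± 0.154 in IM5 (SD, n = 3). It was positive in all 6 libraries of IM3 and IM4 and negative in all 6 of IM2 and IM5. The difference between the means was -1.91 (p = 0.00216 by a two-sided exact permutation of the 12 libraries, which has 924 assignments and allows no smaller value). This test treats the 12 libraries as independent, although same-numbered libraries of IM3 and IM4 deviated together. IM3 and IM4 against IM2 and IM5 is also the split by red blood cell genes and *Pdgfa* length, and the medium and that split cannot be told apart here. Without CHIR99021 it was -1.94 and with it -1.89, where 3 libraries against 3 allow no exact p under 0.1. IM1 had the lowest ratio, -2.17 ± 0.201, and the difference of IM3 from IM1 was 3.05 (SD, n = 3, exact permutation p = 0.1). IM3 and IM1 also lie on opposite sides of the split by red blood cell genes. M, before these media, was at 0.410 ± 0.123, and iSLC was at -0.0208 ± 0.0515 (SD, n = 3). Libraries of IM3 and IM4 thus held more alpha than beta receptor transcripts and those of IM1, IM2 and IM5 the reverse, while iSLC libraries held them about equally.

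**Figure D4:**
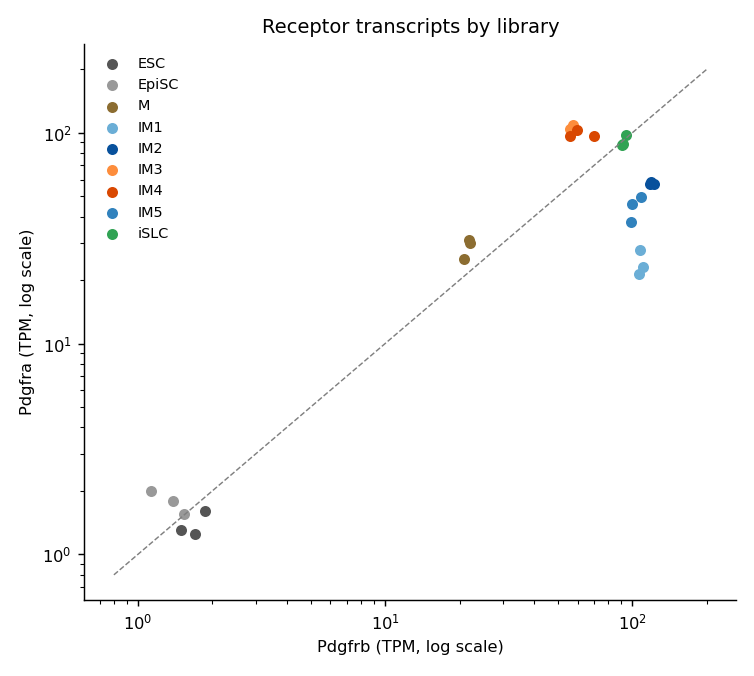
*Pdgfra* against *Pdgfrb* in TPM (log axes) for the 27 libraries, coloured by group, with a dashed line where both are equal. IM3 and IM4 lie above the line (log2 ratios 0.884 and 0.679) and IM1, IM2 and IM5 below it (-2.17, -1.05 and -1.21).

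Sums of some cell type markers differed between the IM media along with the receptors, though not every gene of a list did. The sum of 6 mural and smooth muscle genes (*Rgs5*, *Cspg4*, *Acta2*, *Myh11*, *Des* and *Notch3*) was 897.47 to 1115.26 TPM in IM3 and 796.63 to 960.52 in IM4, and 1919.32 to 2121.92 in IM1, 1784.4 to 1845.7 in IM2 and 1472.53 to 1745.05 in IM5. It was mostly *Acta2*, with 5 of the 6 genes at 1 TPM or more in each of these groups and *Myh11* under it. The pericyte gene *Rgs5* had means of 59.0, 59.8, 26.4, 29.9 and 54.7 TPM in IM1 to IM5. *Des*, at 60.9, 39.3, 61.8, 49.7 and 33.0, and *Notch3*, at 33.3, 46.1, 34.0, 37.3 and 52.0, did not follow the sum. The sum of 7 genes of intermediate mesoderm and genital ridge was 478.3 to 512.92 TPM in IM3 and 348.77 to 386.26 in IM4, against 85.36 to 98.52 in IM1, 176.52 to 180.81 in IM2 and 119.85 to 124.5 in IM5. *Gata4* and *Wt1* made up most of it, and *Pax2* was under 0.1 TPM in IM2, IM3 and IM4. *Osr1* went the other way, at 1.11 and 0.98 TPM in IM3 and IM4 against 3.49, 4.09 and 4.74 in IM1, IM2 and IM5, as did *Lhx1*, at 0.443 and 0.477 against 3.44, 1.24 and 1.06. Primitive endoderm, which also holds *Pdgfra* and *Gata4*, had a list sum of 541.54 to 563.16 TPM in IM3 and 219.58 to 247.36 in IM1, with *Sox17* and *Sox7* lower in IM3 (3.85 and 1.87) than in IM1 (24.1 and 8.39). The sum of 6 endothelial genes was 143.28 to 155.8 TPM in IM1, 91.13 to 95.8 in IM2, 72.15 to 83.22 in IM3, 75.76 to 88.37 in IM4, 80.07 to 85.14 in IM5 and 27.53 to 30.05 in iSLC, where *Tie1* was under 0.1 and *Emcn* made up most of it. These sums overlapped between IM4 and IM5, whose *Pdgfb* levels did not, and *Tek* was higher in IM3 (26.8 TPM) than in IM1 (17.8). The sum of 5 early mesoderm genes did not follow *Pdgfra*. It was 1.85 to 2.44 TPM in IM3, 24.28 to 25.41 in IM2 and 21.57 to 22.71 in IM5. Nor did the sum of 5 paraxial mesoderm genes, at 5.36 to 7.12 TPM in IM3, 18.37 to 18.51 in IM2 and 17.52 to 21.1 in IM5. The part of these cell types in the levels of *Pdgfra*, *Pdgfrb* and *Pdgfb* was not tested.

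Against IM3, the iSLC libraries had 2 members called, both lower, where 19.2% of all genes were called (10.3% higher and 8.92% lower). *Pdgfb* fell by 1.84 (SE 0.123, adjusted p = 3.45e-13) and *Pdgfc* by 1.13 (SE 0.0607, adjusted p = 2.79e-15). *Pdgfd* had the largest log2 fold change of the 6, 3.35 (SE 0.163, adjusted p = 3.55e-16), from 45.62 ± 9.94 to 469.6 ± 13.6 normalized read counts (SD, n = 3). It is not among the called genes because its mean over all 27 libraries, 94.5, is below 100, and without that minimum it is called. *Pdgfrb* (0.70, adjusted p = 2.12e-10) and *Pdgfa* (0.82, adjusted p = 7.83e-09) missed the fold minimum. *Pdgfra* had -0.20 (adjusted p = 0.0292). The sum of 5 fetal Leydig genes was 70.62 to 91.13 TPM in iSLC and 10.32 to 12.95 in IM3, mostly *Cyp11a1* and *Star*. Of this list only *Cyp17a1* was lower in iSLC, at 0.807 TPM on average against 0.927 in IM3. The part of this sum in the differences of the members was not tested.

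The length that RSEM assigned to *Pdgfa* moved with the groups. Effective length, the mean number of start positions over the transcripts in use, was 1030, 1071 and 1193 bases in ESC, 1135, 1168 and 1021 in M, 1084, 1205 and 1034 in IM3 and 1072, 1108 and 922 in IM4. It was 1336, 1638 and 1624 in EpiSC, 1391, 1465 and 1509 in IM1, 1490, 1516 and 1592 in IM2, 1360, 1533 and 1316 in IM5 and 1408, 1345 and 1502 in iSLC. The 2 sets do not overlap, and they are the same libraries as those parted by the red blood cell genes. The ranges of the GC trend in these sets overlapped. With an offset for effective length, the log2 fold change of *Pdgfa* moved from -0.18 to -0.64 for EpiSC against ESC and from -0.08 to 0.37 for M against EpiSC. That of IM5 against IM4 went from 1.11 to 0.69 and was no longer called, while the fall from IM1 to IM3 was still called, at -1.45. *Pdgfra* also varied, from 6052, 6380 and 6477 bases in ESC to 5359 to 5423 in IM5, with 6369, 5089 and 5086 in EpiSC, and none of its calls changed with this offset. M lay at 5440 to 5589 bases, IM1 at 5218 to 5602, IM2 at 5310 to 5524, IM3 at 5429 to 5767, IM4 at 5371 to 5746 and iSLC at 5602 to 5776. Mean lengths of the other 4 members differed by less than 10% between groups.

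**Figure D5:**
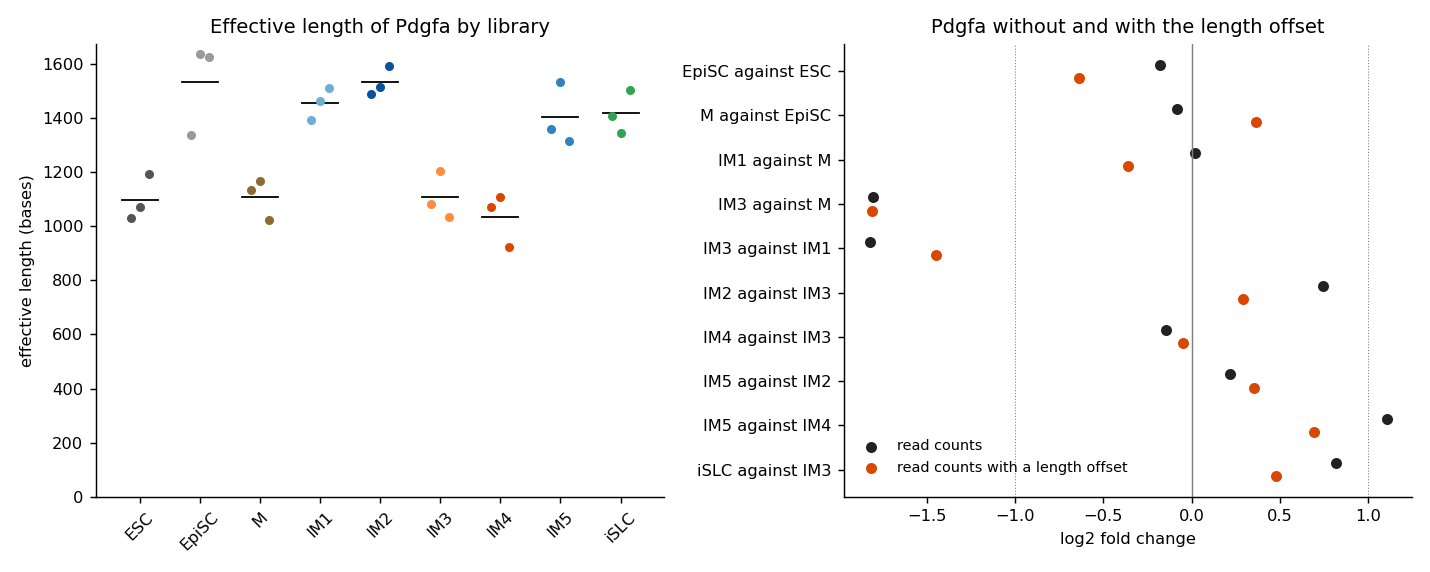
Left, effective length of *Pdgfa* in bases by library, with bars for group means; right, its log2 fold change in 10 comparisons without and with an offset for that length, with dotted lines at a fold of 2. Lengths are 922 to 1205 bases in ESC, M, IM3 and IM4 and 1316 to 1638 in the other groups, and IM5 against IM4 moves from 1.11 to 0.69.

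The other genes of the pathway were described by a list of 46, made up of 6 proteases that activate ligands, 3 co-receptors or binding proteins, 17 proteins that bind or relay from the receptors, 7 that attenuate them and 13 early response genes. All 46 were tested. From ESC to EpiSC 5 were called (2 higher, 3 lower), 10.9% of the list and near the 8.07% of all genes, with a list median of 0.05 on the log2 scale against 0.00 over all genes. *Stat3* (-1.34) and *Gab1* (-1.12), an adaptor, fell the most. From EpiSC to M, 14 were called (9 higher, 5 lower, 30.4% of the list against 14.5% of all genes, median 0.13 against -0.06). *Pcsk5*, a proprotein convertase, rose by 5.69 (adjusted p from edgeR 4.83e-23) and *Nrp1*, a co-receptor, by 5.51 (adjusted p from edgeR 3.46e-26), and both were at or under 0.553 TPM on average in EpiSC.

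From M to IM1, 14 pathway genes were called, all higher (30.4% of the list against 15.7% of all genes), with a list median of 0.27. *Plat*, the tissue plasminogen activator that cleaves PDGF-C, rose by 5.46 and *Plau*, the urokinase that cleaves PDGF-D, by 4.56. *Plat* went from 1.86 TPM on average in M to 88.0 in IM1 and 171 in IM3, and its log2 fold change from M to IM3 was 6.33. In that comparison 12 were called (8 higher, 4 lower, 26.1% of the list against 14.9% of all genes, median 0.10). *Myc* (-2.08) and *Fos* (-1.87) fell the most. From IM1 to IM3, 7 were called, all lower (15.2% of the list against 6.34% of all genes, median -0.20), of which 6 were among the 13 early response genes, whose median was -1.08. *Ier3* (-2.06) and *Egr1* (-1.92) fell the most. None of the 17 relay proteins, 3 co-receptors or 7 attenuators was called there.

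Between IM2 and IM3, 3 pathway genes were called (median 0.23), and between IM5 and IM4 also 3 (median 0.22), all higher and all early response genes. That is 6.52% of the list in each, against 3.8% and 4.09% of all genes. *Junb* rose by 2.70 and 2.29 and *Ier3* by 2.04 and 1.91. For CHIR99021, 0 of 46 were called in IM4 against IM3 and 0 in IM5 against IM2 by both edgeR and DESeq2, with 8 and 18 at an unadjusted p under 0.05. Of all genes, 0.101% and 0.235% were called by edgeR in these comparisons. The interaction also gave 0 by both tools, against 0.0336% of all genes by edgeR, with 8 at an unadjusted p under 0.05. At such shares a count of 0 among 46 genes says little about the list. The shares of all genes at that unadjusted p are not given here. From IM3 to iSLC, 22 of 46 (47.8%, against 19.2% of all genes) were called, 14 higher and 8 lower, with a median of 0.43. The largest rises were *Egr1* (4.53) and *Egr2* (2.90), and the largest falls *Pik3cb* (-2.85), a catalytic subunit of phosphatidylinositol 3-kinase, and *Fosl1* (-2.06). Early response genes answer many signals and the stress of sorting, and what set them here was not tested.

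Relatives of the receptors that lie beside them in the genome had other patterns. *Kit* and *Kdr* follow *Pdgfra* on chromosome 5, at 75574916 to 75656722 and 75932827 to 75978458. *Kdr*, a receptor of vascular endothelial growth factor, appeared at the same step as *Pdgfra*, from 0.437 TPM on average in EpiSC to 58.4 in M (log2 fold change 7.00, adjusted p from edgeR 5.54e-27). It was called lower in IM3 than in M (-1.82), where *Pdgfra* was called higher, and lower in iSLC than in IM3 (-4.70), where *Pdgfra* was not called. *Kit*, the receptor of stem cell factor, was at 25.2 TPM in ESC, 39.7 in IM1, 17.0 in IM3 and 5.76 in iSLC. It was called lower in IM3 than in IM1 (-1.35), where *Pdgfra* was called higher. Beside *Pdgfrb* on chromosome 18, *Csf1r* (61100598 to 61132149) was at 0.117 TPM in M and 2.26 to 4.13 in the IM media, and the homeobox gene *Cdx1* (61018862 to 61036199) was highest in ESC (18.0 TPM). *Cdx1* was called higher in IM2 than IM3 (2.77) and in IM5 than IM4 (2.53), like *Pdgfb*, at means of 2.60 and 3.16 TPM in IM2 and IM5. Of 15 related receptors and ligands, 6 were called lower and 0 higher in IM3 than in IM1, where 3.72% and 2.62% of all genes were.

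Over the 9 group means (log2 of CPM plus 1), *Pdgfra* and *Pdgfrb* correlated by 0.901 and *Pdgfa* and *Pdgfra* by -0.809, as a description of 9 points that share libraries. Both receptors were lowest in ESC and EpiSC, at means of 1.35 to 1.78 TPM. From IM1 to IM3 they moved in opposite directions, with log2 fold changes of 2.10 for *Pdgfra* and -1.003 for *Pdgfrb*. Of 12523 named genes compared, those most like *Pdgfra* were *Adcyap1r1* (Pearson 0.995), *Ccdc88a* (0.994) and *Cdc16* (0.990). Those most like *Pdgfrb* were *Farp1* (0.997), *Gna11* (0.996) and *Arpin* (0.994). For *Pdgfa* they were *Radil* (0.966), *Anxa7* (0.951) and *Slc29a4* (0.951), and for *Pdgfb* *Tes* (0.985), *Hbegf* (0.983), which encodes another growth factor, and *Ccr7* (0.977). For *Pdgfc* they were *Tmem41b* (0.983), *Fuca2* (0.980) and *Ei24* (0.976). *Serinc3* (0.984), *Ppp1r3c* (0.983) and *Gbp6* (0.980) were the most like *Pdgfd*, whose pattern rests on the iSLC group.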

How the data were processed

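RNA-seq was analysed in 27 libraries of 9 groups, with group and replicate from the labels. Per the submitters' processing notes and the paper's methods, the authors trimmed reads with Cutadapt 1.9.1, aligned them with STAR 2.5.2a to GRCm38 and ran RSEM 1.3.0. The deposited expected counts are RSEM's estimated fragments per gene, not normalized. The deposited TPM values are the same estimates scaled by effective length and library total, and the deposited effective lengths give no other measurement. Names and coordinates come from GENCODE M21, a later annotation on the same build, and matched 99.09% of genes.

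Expected counts were rounded and fitted with edgeR 4.0.16 (R 4.3.3) in one model with a coefficient per group, after filterByExpr and TMM scaling. A normalized read count is a count scaled to the mean effective library size. DESeq2 1.42.0 was an alternative, as were its size factors, an offset for effective length, no low-count filter, only the groups compared, other thresholds, a block on replicate numbers and leaving out each library in turn. An offset for GC content was added after the data were seen. Exact permutation tests were two-sided. The steps were tested on simulated data.

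The members and lists were chosen with earlier results of these data known. Named were the members, up to 2 rises and 2 falls of called pathway genes per comparison, *Kit*, *Kdr*, *Csf1r* and *Cdx1*, and the 3 genes most like each member, without provisional symbols. Markers named come from the lists for cell types. Replicate numbers are those of the labels. Deviations of same-numbered libraries correlated by 0.194, 0.178 and 0.206 between IM4 and IM3, and not all by over 0.1 in any other comparison. The main fit did not pair libraries, and a block on replicate numbers was fitted only as an alternative. Chi-square per degree of freedom between replicates was 3.53 to 50.2, so none was a duplicate. Replicates thus differed by more than counting error, at totals of 35923040 to 84876603 expected counts per library.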

Additional observations from a re-analysis of the deposited data

How the results depend on the processing

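Of the log2 fold changes of the members under the alternatives, 1047 kept direction and call, 14 became called, 11 lost their call and 20 changed sign. Without a fold minimum, members called were 4 for IM1 against M, 5 for IM2 against IM3, 1 for IM5 against IM2 and 4 for iSLC against IM3. Over all 20839 genes, calls without a fold minimum were 9940, 5430, 808 and 10507 in these comparisons, in that order. They were 9485 for IM3 against M, 7198 for IM3 against IM1 and 6631 for IM5 against IM4. Pathway genes called were then 26 for EpiSC against ESC, 32 for M against EpiSC, 37 for IM1 against M, 33 for IM3 against M, 27 for IM3 against IM1, 25 for IM2 against IM3, 2 for IM5 against IM2, 27 for IM5 against IM4 and 41 for iSLC against IM3. Without the minimum of normalized reads, 5 pathway genes were called for IM2 against IM3 and 5 for IM5 against IM4, and 5 for IM5 against IM4 in a fit of only these groups. Counts over all genes are not given here for these settings, nor for EpiSC against ESC and M against EpiSC without a fold minimum. With the GC offset, 2 members were called for IM3 against IM1 and 0 for IM2 against IM3, where 1233 and 738 of all 20839 genes were. With the replicate block, counts of calls did not change (0 of 6 members for IM4 against IM3, whose same-numbered libraries correlated).

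*Pdgfa* went to 0.37 for M against EpiSC and -0.36 for IM1 against M with the length offset, and to -0.17 (GC offset) for IM1 against M. *Pdgfb* went to -0.0767 for IM1 against M (GC offset) and to -0.0064 (DESeq2 size factors) and -0.0029 (DESeq2) for IM4 against IM3. With 1 library left out, *Pdgfa* reached -0.0289 to 0.0812 for IM1 against M, *Pdgfb* -0.174 to 0.122 for IM4 against IM3, -0.14 to 0.0442 for IM5 against IM2 and -0.164 to 0.132 for the interaction, *Pdgfc* -0.0527 to 0.0073 for IM5 against IM2, and *Pdgfd* -0.175 to 0.102 for IM4 against IM3. The cause was not tested. The receptor ratio difference lay between -1.98 and -1.86 over 15 alternatives, all past p = 0.05 in the exact permutation test. These were other values added to the TPM, normalized read counts and leaving out each library. The ratio of IM3 and IM4 libraries never overlapped that of IM2 and IM5. Leaving out 1 library could therefore not take p past 0.05, and these p-values add no support. The offset for GC content was not applied to the ratio. Over 27 libraries in place of 9 means, 3 of the 3 genes most like *Pdgfa*, *Pdgfb*, *Pdgfc* and *Pdgfd* were the same and 1 of 3 for each receptor. By Spearman correlation 0 or 1 of 3 were, among many ties of 9 ranks. Depth limits *Pdgfd* most, at 28.04 to 80.19 mean normalized reads outside iSLC.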
